A study of Mus musculus with 6 samples.

Results

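The Rhox genes are a cluster of homeobox genes on the mouse X chromosome. Probes for 3 of 6 Rhox genes that were looked for, Rhox5, Rhox6 and Rhox9, were found through the RefSeq accession of each probe, with 1 probe per gene among 41174 probes and 16535 named genes of the array. No accession on the array matched Rhox8, Rhox10 or Rhox13, which are not analysed here. In all, 7 of the 42 Rhox genes and pseudogenes listed by RefSeq had a matched probe. The other 4, Rhox2a, Rhox3a, Rhox4e and Rhox11, are given as neighbours of the 3.

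The arrays were made from RNA of whole male gonads of E14.5 embryos of a mixed ICR and N2 background. There were 2 one-colour arrays for each of 3 genotypes. Nanos2+/- gonads, the controls, keep 1 working allele of Nanos2, and Nanos2-/- gonads have none, the null allele carrying lacZ. The third genotype, written Nanos2-/-_Tg+, is null for Nanos2 and carries the Nanos2-ΔN10 transgene with a 3×FLAG tag. This transgene is driven by the Nanos2 enhancer, comes from a single transgenic line and encodes NANOS2 without 10 residues at its N-terminus. The study asked whether this truncated protein can replace NANOS2. Wild-type gonads and gonads with a full-length transgene are not analysed here.

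Rhox proteins are homeodomain transcription factors made mainly in the testis, ovary, epididymis and placenta. Rhox5, also called Pem, was the first of them to be described and is best known as a gene of Sertoli cells, the somatic cells that enclose male germ cells. Rhox6 and Rhox9, also called Psx1 and Psx2, are closely related neighbours that were described from the placenta and are expressed in fetal gonads. Rhox2, Rhox3 and Rhox4 genes stand in many similar copies at one end of the cluster, so a probe named for 1 copy may read others. The probe sequences were not used here, and cross-reading between copies was not tested. Rhox genes are known for control by DNA methylation.

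The bases before the annotated starts of Rhox5 and Rhox2a are shown because the signals of these genes ran most closely together from array to array within genotypes. Both are 250 bases from RefSeq on the plus strand of GRCm38.p6, chrX:37754358-37754607 for Rhox5 and chrX:37244742-37244991 for Rhox2a. Capitals mark GATA on either strand, the core letters of GATA factor sites.
Rhox5: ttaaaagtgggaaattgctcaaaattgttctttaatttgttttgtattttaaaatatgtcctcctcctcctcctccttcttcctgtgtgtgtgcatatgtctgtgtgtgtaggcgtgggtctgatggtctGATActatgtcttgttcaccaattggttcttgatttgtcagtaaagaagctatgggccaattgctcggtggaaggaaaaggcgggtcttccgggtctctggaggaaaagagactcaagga
Rhox2a: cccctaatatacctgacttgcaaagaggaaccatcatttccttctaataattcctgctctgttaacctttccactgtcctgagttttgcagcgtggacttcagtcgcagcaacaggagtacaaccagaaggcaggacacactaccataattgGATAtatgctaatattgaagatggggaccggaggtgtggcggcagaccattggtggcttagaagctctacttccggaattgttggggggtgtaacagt
GATA had 1 match in each gene, starting 120 bases before the start of Rhox5 and 98 before that of Rhox2a, and stood in 53.6% of the 32851 promoter stretches of this length. Rhox5 had 4 and Rhox2a 5 CG pairs, against a median of 6, and a GC content of 42.8% and 47.2%, against a median of 52.4%. The reference table used here gave no promoter for Rhox6 or Rhox9.

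The Nanos2 probe followed the genotypes. It read 9.42 and 10.78 on the Nanos2+/- arrays and 13.28 and 14.25 on the Nanos2-/-_Tg+ arrays, as log2 of the scaled signal, whereas neither Nanos2-/- array read it well above background. Nanos2+/- exceeded Nanos2-/- at least 89.7-fold, a bound set by the weakest signals marked as well above background. By limma with Benjamini-Hochberg adjustment, Nanos2-/- differed from Nanos2+/- by -7.78 (log2 change, adjusted p = 0.00198), with both Nanos2-/- arrays at the floor of 5. On each array 64.1 to 66.7% of probes were well above background. Between replicates, the median absolute difference over 24953 probes detected well above background throughout was 0.324 in Nanos2+/-, 0.191 in Nanos2-/- and 0.174 in Nanos2-/-_Tg+. The control arrays shared 1 slide, and the 4 remaining arrays shared a different one, so slide and genotype cannot be told apart in any comparison with Nanos2+/-.

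All 10 Sertoli cell markers (Amh and Sox9 among them), all 9 germ cell markers with a probe (Ddx4 and Dazl among them) and all 6 fetal Leydig cell markers with a probe (Cyp11a1 and Star among them) were well above background on every array. Foxl2, a defining gene of ovarian granulosa cells, and Pax2, a gene of the mesonephros, reached this level on 0 of 6 arrays. Of the ovarian somatic cell markers, however, 4 of 6 reached it on every array, and of the mesonephros markers 3 to 5 of 6 per array. Tested were markers of germ cells (9), Sertoli cells (10), fetal Leydig cells (6), mesonephros (5), blood (6) and ovarian somatic cells (4). Against 0.0187 to 0.105% of all tested probes, 0 of these markers were called in any comparison. Their median changes in Nanos2-/- against Nanos2+/- ran from -0.14 for blood to 0.20 for mesonephros, and in Nanos2-/-_Tg+ from -0.26 for fetal Leydig cells to 0.29 for blood. With 1 array left out, these medians ran in Nanos2-/- from -0.50 to 0.24 for blood and from -0.54 to 0.44 for mesonephros, and in Nanos2-/-_Tg+ from -0.37 to 0.069 for fetal Leydig cells and from -0.035 to 0.56 for blood. In RNA of whole gonads, fewer cells of a type and less RNA per cell cannot be told apart.

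Rhox5, Rhox6 and Rhox9 were well above background on all 6 arrays, and Rhox11 on 0 of 6. Among the others, Rhox2a, Rhox3a and Rhox4e were well above background on all 6. Of these Rhox genes 6 were tested, without Rhox11. In each comparison 0 of the 6 were called different, against 0.0187 to 0.105% of all tested probes. A call required a limma adjusted p below 0.05 over all tested probes and a change of at least 2-fold.

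Rhox5 read 14.68 and 15.69 in Nanos2+/- (log2 of the scaled signal), 14.93 and 15.20 in Nanos2-/-, and 15.33 and 15.61 in Nanos2-/-_Tg+. Its lowest and its highest array were thus the 2 control arrays, and the other 4 arrays lay between them. The means were 15.18 ± 0.71 in Nanos2+/-, 15.07 ± 0.19 in Nanos2-/- and 15.47 ± 0.20 in Nanos2-/-_Tg+ (SD, n = 2). From highest to lowest mean, the order was Nanos2-/-_Tg+, Nanos2+/- and Nanos2-/-, and neither pair of neighbours in it differed beyond the spread of its arrays. The control arrays stood 2.01-fold apart for Rhox5, a larger replicate difference than 97.0% of the 24953 probes showed.

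Rhox6 read 8.27 and 9.02 in Nanos2+/-, 8.01 and 8.66 in Nanos2-/-, and 8.87 and 8.07 in Nanos2-/-_Tg+. The ranges of the 3 genotypes overlapped. The means were 8.64 ± 0.53, 8.33 ± 0.46 and 8.47 ± 0.56 in that order (SD, n = 2), so Nanos2+/- was highest and Nanos2-/- lowest, with differences smaller than the SD of each genotype.

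Rhox9 read 8.97 and 9.81 in Nanos2+/-, 9.04 and 9.28 in Nanos2-/-, and 9.41 and 8.98 in Nanos2-/-_Tg+. As with Rhox5, the control arrays held both extremes. The means were 9.39 ± 0.60, 9.16 ± 0.17 and 9.20 ± 0.30 (SD, n = 2), again with Nanos2+/- highest and Nanos2-/- lowest and with overlapping ranges.

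**Figure D1:**
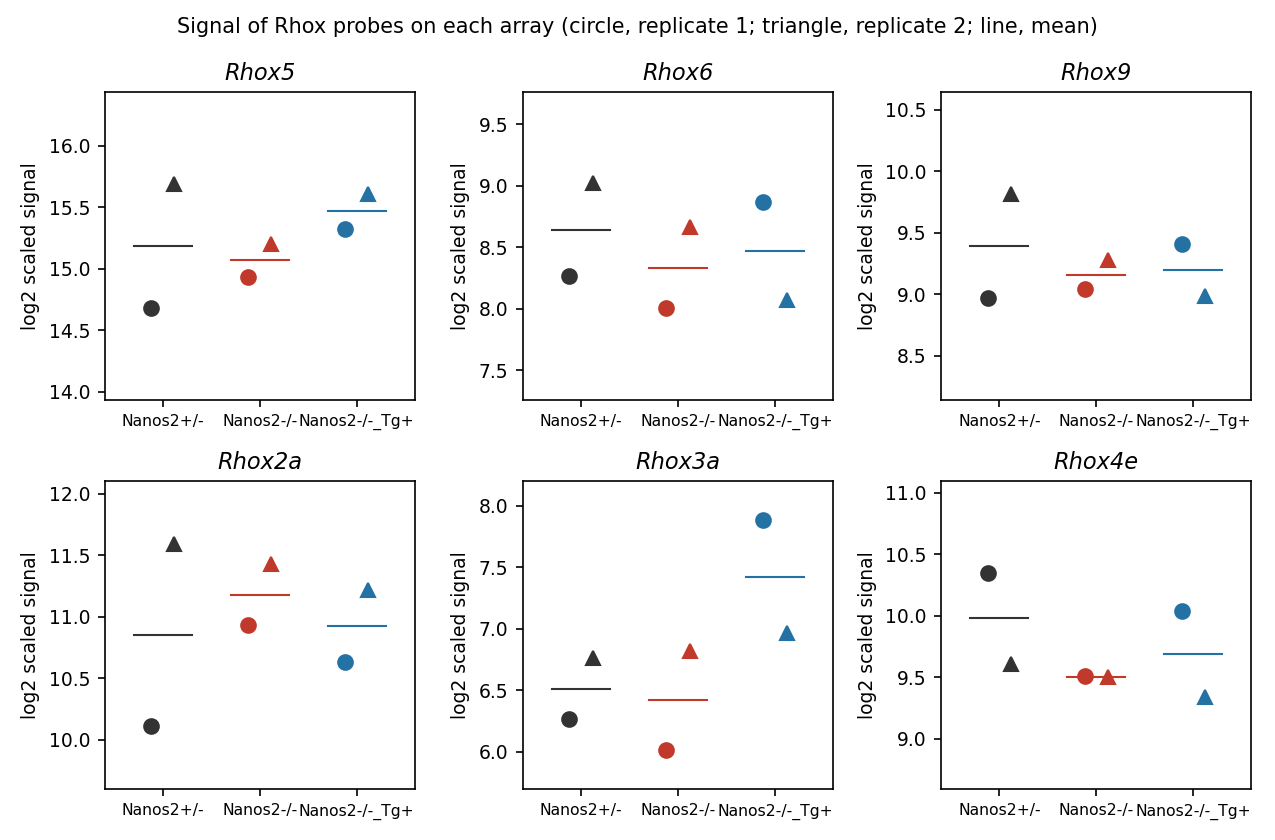
Signal of the 6 Rhox probes that were well above background, as log2 of the scaled signal, for each of the 6 arrays by genotype. Circles are replicate 1, triangles replicate 2 and lines the mean of the 2 arrays; every panel spans the same range of log2 units. The control arrays hold the lowest and the highest value of Rhox5, Rhox9 and Rhox2a, and Rhox3a is the gene whose Nanos2-/-_Tg+ arrays both lie above the other 4.

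Loss of Nanos2 came with small differences of Rhox5, Rhox6 and Rhox9 that were not beyond the replicate error. Between Nanos2-/- and Nanos2+/-, Rhox5 differed by -0.12 ± 0.33 (log2 change ± SE), with a 95% interval from -0.88 to 0.65. Rhox6 differed by -0.31 ± 0.37, with an interval from -1.18 to 0.56. Rhox9 differed by -0.23 ± 0.30, with an interval from -0.94 to 0.48. For Rhox5 and Rhox9 these intervals stay within a 2-fold change in either direction. For Rhox6 a fall of somewhat over 2-fold lies within its interval. The intervals rest on 1 spread shared by all 3 genotypes. The SD of the Nanos2+/- arrays was 0.71 for Rhox5 and 0.60 for Rhox9, against 0.19 and 0.17 in Nanos2-/-. The intervals may thus be too narrow here and do not exclude a 2-fold change. The limma adjusted p-values ran from 0.862 to 0.952. Of the 3 genes, 0 were called, against 0.0674% of the 26711 probes tested, and 0 of 3 had array values that did not overlap between the genotypes, against 36% of probes. At an unadjusted limma p below 0.05 stood 0 of 3, against 9.08%. All 3 lay below 0, where the median change over all tested probes was -0.035 and 44.6% of probes lay above 0. Under normexp background correction, which moved the median of all tested probes to 0.56, all 3 lay above 0. The summed signal of the 9 germ cell markers was 85842 to 92875 in Nanos2+/- and 65943 to 79322 in Nanos2-/-, and that of the 6 blood cell markers 170712 to 190078 and 140388 to 154791. By this sum neither list overlapped between the genotypes, while the Sertoli cell, fetal Leydig cell, mesonephros and ovarian lists did. The blood marker Hba-a1 alone averaged 156869 in Nanos2+/- and 129211 in Nanos2-/-. Among germ cell markers, Mael averaged 25023 and 17870 in these genotypes, Dnd1 12887 and 7329, and Dppa4 13587 and 8886. Of the 9 germ cell markers, 6 had a change below 0 and 3 above. By mean log2 signal the germ cell list (12.37 and 12.64 against 12.18 and 12.54) and the blood list (10.67 and 11.47 against 10.95 and 10.97) overlapped. The ovarian list then did not, at 6.98 and 7.17 in Nanos2+/- and 6.95 and 6.88 in Nanos2-/-. This mean includes Foxl2 and Irx3, which no array read well above background. They averaged 3.21 and 2.68 in Nanos2+/-, and 2.84 and 2.32 in Nanos2-/-. Of the 4 tested ovarian markers, 2 had a change above 0 and 2 below. The part of these differences in the Rhox values was not tested.

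The truncated NANOS2 was compared with the control in the same way, and the same control arrays enter this comparison. Between Nanos2-/-_Tg+ and Nanos2+/-, the change was 0.28 ± 0.33 for Rhox5, -0.17 ± 0.37 for Rhox6 and -0.20 ± 0.30 for Rhox9 (log2 change ± SE). The 95% intervals ran from -0.48 to 1.04 for Rhox5, from -1.04 to 0.69 for Rhox6 and from -0.91 to 0.51 for Rhox9. Rhox5 thus lay above the control mean and the other two below it, with adjusted p from 0.813 to 0.910 by limma. Called were 0 of 3, against 0.105% of probes, and 0 of 3 did not overlap, against 38.9%. At an unadjusted limma p below 0.05 stood 0 of 3, against 11.6%. The change lay above 0 for 1 of 3, against 48.2% of probes. The summed signal of the germ cell markers was 82750 to 84185 in Nanos2-/-_Tg+ and 85842 to 92875 in Nanos2+/-. For the blood cell markers these were 202512 to 209115 and 170712 to 190078, and for the ovarian somatic cell markers 21734 to 24495 and 11299 to 18679. By summed signal these 3 lists did not overlap between the genotypes, and the other 3 did. By mean log2 signal the germ cell list (12.51 and 12.61 against 12.37 and 12.64) and the blood list (11.06 and 11.59 against 10.67 and 11.47) overlapped. So did the ovarian list (7.15 and 7.06 against 6.98 and 7.17), with a median change of -0.12 and 1 of 4 genes above 0. The ovarian marker Rspo1 alone averaged 20608 in Nanos2-/-_Tg+ and 12185 in Nanos2+/-. Of the 9 germ cell markers, 5 had a change above 0 and 4 below. The part of the lists in the Rhox values was not tested.

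Between Nanos2-/-_Tg+ and Nanos2-/-, compared within 1 slide, Rhox5 was 0.40 ± 0.33 higher (log2 change ± SE), with a 95% interval from -0.37 to 1.16 and a limma adjusted p of 1. Both Nanos2-/-_Tg+ arrays read above both Nanos2-/- arrays, 15.33 being the lowest of the former and 15.20 the highest of the latter. Rhox5 was the 1 of the 3 genes without overlap here, against 31.4% of all probes. Rhox6 differed by 0.14 ± 0.37 and Rhox9 by 0.036 ± 0.30, with intervals from -0.73 to 1.00 and from -0.67 to 0.75. These arrays also differed in marker lists. The summed signal of the 9 germ cell markers was 65943 to 79322 in Nanos2-/- and 82750 to 84185 in Nanos2-/-_Tg+, and that of the 6 blood cell markers 140388 to 154791 and 202512 to 209115, without overlap in either list. The ovarian somatic cell markers also did not overlap by this sum, at 18609 to 20321 and 21734 to 24495. Of the 4 tested ovarian markers, 2 had a change above 0 and 2 below, with a median of -0.019. The summed signal of the 10 Sertoli cell markers was 187436 to 229617 and 211331 to 229990, with overlap, and the fetal Leydig cell and mesonephros lists overlapped as well. By mean log2 signal the germ cell list overlapped (12.18 and 12.54 against 12.51 and 12.61). The Sertoli cell list then did not (12.53 and 12.57 against 12.64 and 12.70). The blood and ovarian lists did not overlap by either measure. The ovarian mean includes Foxl2 and Irx3, which no array read well above background. Foxl2 averaged 2.84 in Nanos2-/- and 4.08 in Nanos2-/-_Tg+, so this mean moved with an undetected gene. The part of these differences in the Rhox5 value was not tested. All 3 changes lay above 0, against 56.8% of probes. Called were 0 of 3, against 0.0187%, and at an unadjusted limma p below 0.05 stood 0 of 3, against 2.74%. The exact rank test of 1 probe on 2 arrays against 2 cannot give a two-sided p below 0.333.

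**Figure D2:**
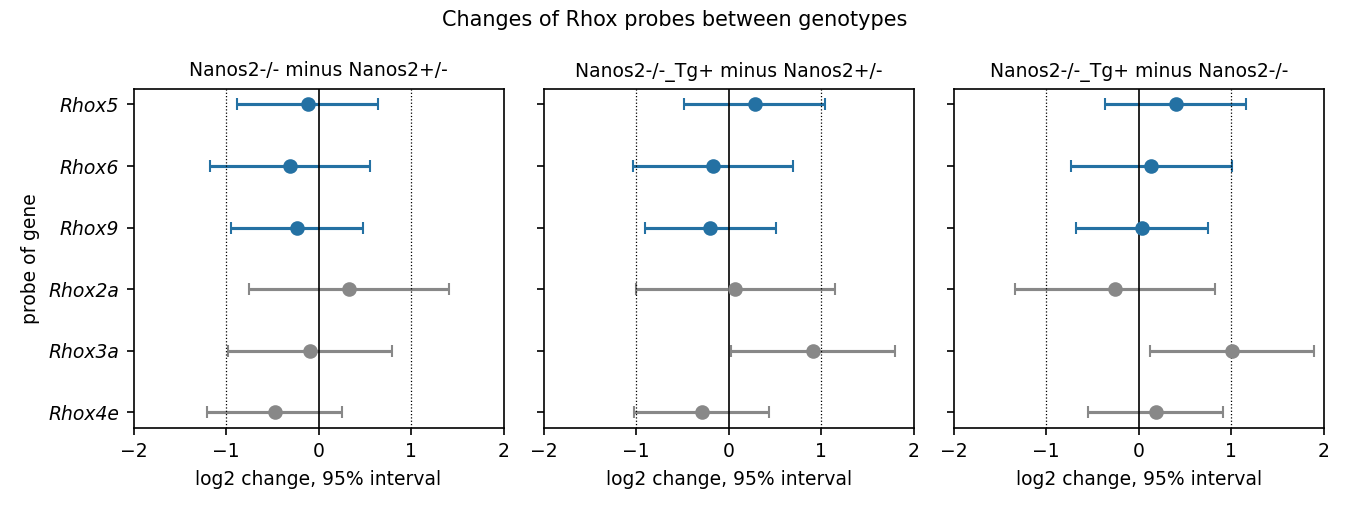
Log2 change of each Rhox probe in the 3 comparisons, with its 95% interval from limma; dotted lines mark a 2-fold change, blue points are Rhox5, Rhox6 and Rhox9 and grey points other Rhox genes. The intervals of the 3 blue points cross 0 in every panel, and the grey point of Rhox3a lies at 0.91 and 1.00 in the comparisons of Nanos2-/-_Tg+.

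Among the other Rhox genes, Rhox3a had the largest difference. It read 6.26 and 6.76 in Nanos2+/-, 6.02 and 6.82 in Nanos2-/-, and 7.88 and 6.96 in Nanos2-/-_Tg+. Both Nanos2-/-_Tg+ arrays were above the other 4. In either direction, 38.9% of all probes did not overlap between Nanos2-/-_Tg+ and Nanos2+/-, and 31.4% between Nanos2-/-_Tg+ and Nanos2-/-. For Rhox3a the nearest arrays, at 6.96 and 6.82, were close together. The difference was 0.91 ± 0.38 from Nanos2+/- (unadjusted p = 0.0453, limma adjusted p = 0.419) and 1.00 ± 0.38 from Nanos2-/- (unadjusted p = 0.0312, adjusted p = 1). Leaving out replicate 1 of Nanos2-/-_Tg+ brought these to 0.45 and 0.55. Against Nanos2+/-, Rhox3a in Nanos2-/- differed by -0.094 ± 0.38.

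Rhox2a read 10.11 and 11.59 in Nanos2+/-, 10.94 and 11.43 in Nanos2-/-, and 10.63 and 11.22 in Nanos2-/-_Tg+. As for Rhox5, the control arrays were its lowest and its highest, and their difference exceeded that of 99.2% of probes. Its changes were 0.33 ± 0.46 in Nanos2-/- and 0.073 ± 0.46 in Nanos2-/-_Tg+ against the control. Rhox4e read 10.35 and 9.61 in Nanos2+/-, 9.51 on Nanos2-/- replicate 1 with replicate 2 differing by -0.010, and 10.04 and 9.34 in Nanos2-/-_Tg+. It lay lower on both Nanos2-/- arrays than on both control arrays, by -0.47 ± 0.31 (limma adjusted p = 0.731). Array values of these genotypes did not overlap for 36% of all probes. The change of Rhox4e was -0.10 without replicate 1 of Nanos2+/- and -0.84 without replicate 2. Over the 3 other Rhox genes tested, 0 were called in any comparison, against 0.0187 to 0.105% of all tested probes.

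The arrays of a genotype differed for several Rhox genes at once. In Nanos2+/-, replicate 2 exceeded replicate 1 by 1.01 for Rhox5, 0.75 for Rhox6, 0.84 for Rhox9 and 1.48 for Rhox2a (log2 difference). In Nanos2-/-_Tg+, replicate 2 differed from replicate 1 by -0.80 for Rhox6, -0.43 for Rhox9 and -0.92 for Rhox3a, and by 0.28 for Rhox5 and 0.59 for Rhox2a. Rhox6, Rhox9 and Rhox3a were thus lower, and Rhox5 and Rhox2a higher, on the same array. Across the 6 arrays, the log2 signals of Rhox6 and Rhox9 had a Pearson correlation of 0.91, and their deviations from the genotype means 0.91. The deviations of Rhox5 and Rhox2a correlated at 0.99, those of Rhox6 and Rhox3a at 0.97 and those of Rhox5 and Rhox4e at -0.86. For the log2 signals of these pairs across the 6 arrays, the correlations were weaker, at 0.77, 0.59 and -0.59. These are descriptions from 15 pairs of genes, whose points share arrays, and with 2 arrays a genotype the 6 deviations of a gene hold only 3 independent values. On the control arrays, the summed signal of the Sertoli cell markers was 179159 on replicate 1 and 246374 on replicate 2, and that of the germ cell markers 85842 and 92875. The mesonephros list read 743 and 1528, and the ovarian list 11299 and 18679. All 6 marker lists were thus higher on replicate 2 of Nanos2+/-. So was the summed signal of the genes flanking the Rhox cluster, at 137950 on replicate 1 and 191975 on replicate 2. Replicate 2 of Nanos2+/- also had the largest scaling factor of the arrays, 1.28. In Nanos2-/-_Tg+ the Sertoli cell list read 211331 on replicate 1 and 229990 on replicate 2, and the fetal Leydig cell list 97792 and 81225. There 4 of the 6 lists were higher on replicate 2, and the fetal Leydig cell and ovarian lists were lower. Their part in the Rhox values was not tested.

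Among 12448 named genes with probes well above background on every array, those whose log2 signal ran most like Rhox5 over the 6 arrays were Tcf7l2 (Pearson r = 0.997), Slc25a17 (0.997) and Hexim1 (0.996). For Rhox6 they were Itgb1bp1 (0.980), Traf3ip2 (0.978) and Jade2 (0.977), and for Rhox9 Smc1b (0.995), a cohesin subunit of meiotic cells, Tmem175 (0.993) and Chil3 (0.992). These are the highest values of a search over this many genes on 6 arrays, given as a description.

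The genes on either side of the cluster were compared to see whether the Rhox values stood in a wider stretch of differences. The nearest 10 genes with a probe beyond the outermost Rhox gene or pseudogene on each side were taken, and 17 of these 20 were tested. Against 0.0187 to 0.105% of all tested probes, 0 of these 17 genes were called in each comparison. Their median change was -0.013 in Nanos2-/- and 0.077 in Nanos2-/-_Tg+ against Nanos2+/-, and 0.12 between Nanos2-/-_Tg+ and Nanos2-/-, beside medians of -0.035, -0.012 and 0.030 over all tested probes. Gm9, the nearest gene before the cluster, differed by -0.72 ± 0.20 and -0.57 ± 0.20 from the control in Nanos2-/- and Nanos2-/-_Tg+ (unadjusted p = 0.00841 and 0.0239, limma adjusted p = 0.341 and 0.332). Snora69, a small nucleolar RNA, differed by 0.74 ± 0.22 in Nanos2-/- (unadjusted p = 0.0102, limma adjusted p = 0.355) and by 0.14 ± 0.22 in Nanos2-/-_Tg+. The nearest tested gene after the cluster, Lamp2, which encodes a lysosomal membrane protein, differed by -0.099 ± 0.20 and 0.054 ± 0.20. The Rhox values thus lay among flanking genes whose changes had either sign, and no test set one against the other.

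**Figure D3:**
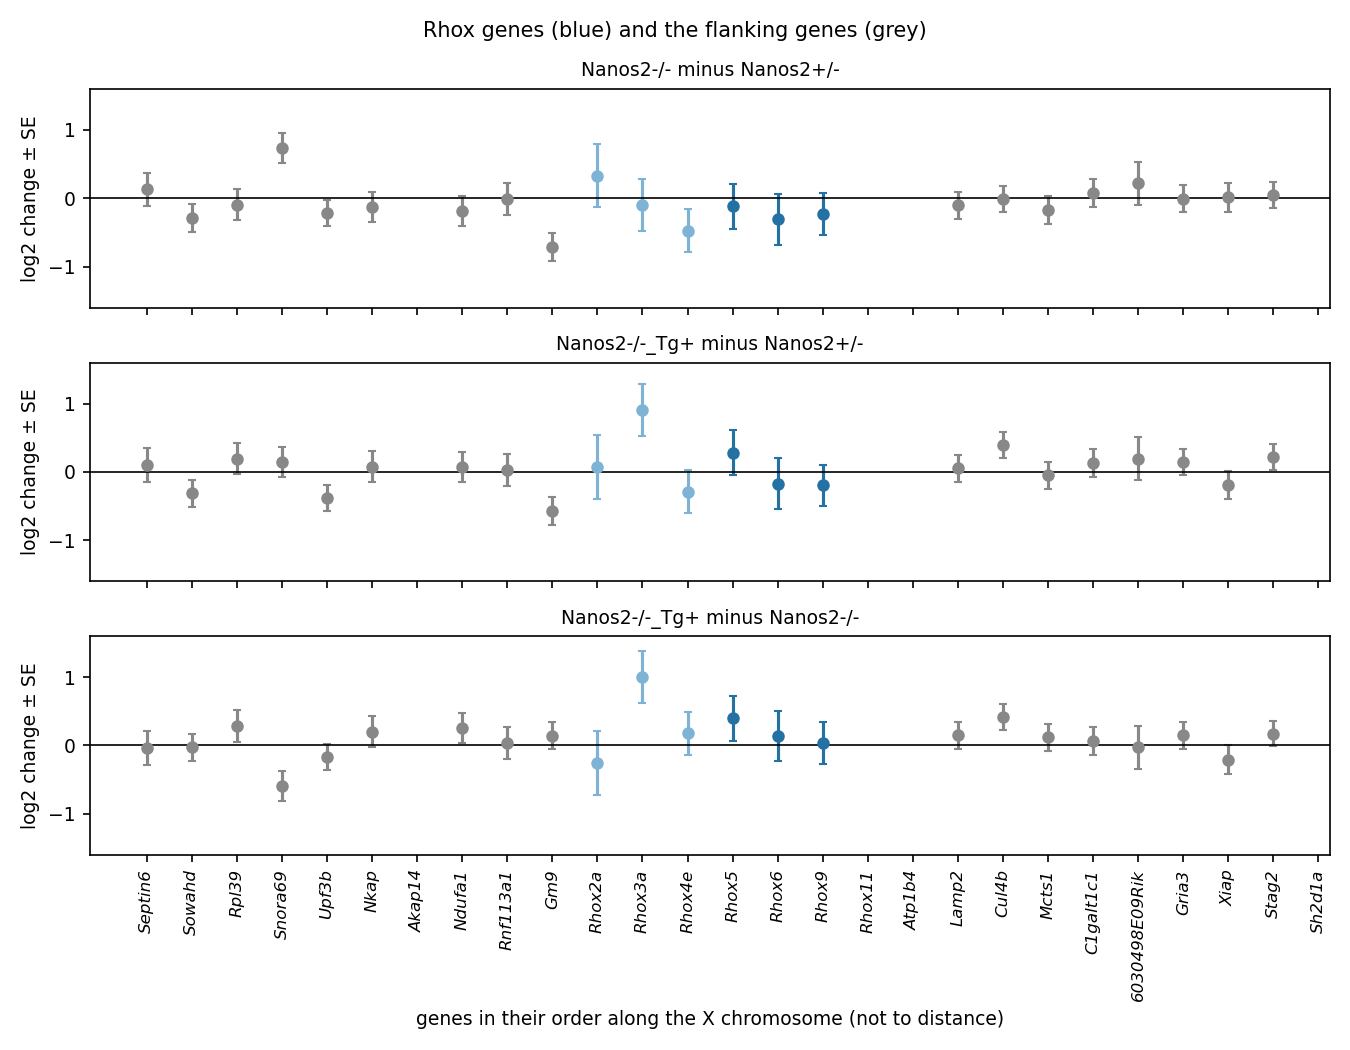
Log2 change ± SE of Rhox genes (dark blue for Rhox5, Rhox6 and Rhox9, light blue for Rhox2a, Rhox3a and Rhox4e) and of flanking genes (grey) in their order along the X chromosome, in the 3 comparisons; a gene name without a point was not tested. Most points lie within 0.5 of 0, with Rhox3a highest in the lower 2 panels and Gm9 and Snora69 apart in the upper panel.

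Genes that act on Rhox genes or on DNA methylation were taken as a list of 15, and all 15 were tested. Called were 0 of 15 in each comparison, against 0.0187 to 0.105% of all tested probes. The median changes of the 15 genes were -0.061, 0.044 and 0.083. Gata4, a factor of the somatic gonad, differed from the control by 0.0076 ± 0.18 in Nanos2-/- and 0.11 ± 0.18 in Nanos2-/-_Tg+. The second Gata4 probe gave 0.36 ± 0.18 and 0.54 ± 0.18 (limma adjusted p = 0.621 and 0.307), so the probes of this gene disagreed in size. Dnmt3l, the cofactor of DNA methylation in male germ cells, had the largest differences of the list, -2.22 ± 0.63 and -1.90 ± 0.63 (unadjusted p = 0.00885 and 0.0185, limma adjusted p = 0.344 and 0.303). It read 13.40 and 11.12 in Nanos2+/-, 10.09 and 9.99 in Nanos2-/-, and 10.66 and 10.06 in Nanos2-/-_Tg+, and without replicate 1 of Nanos2+/- its differences were -1.08 and -0.75. Dnmt3b, a DNA methyltransferase that sets new methylation, differed by 0.71 ± 0.28 and 0.87 ± 0.28 (unadjusted p = 0.0372 and 0.0159, limma adjusted p = 0.508 and 0.288). For Dnmt3a, another methyltransferase of this kind, the brightest probe gave -0.33 ± 0.27 and 0.044 ± 0.27. Another of its probes gave -0.91 ± 0.24 and -0.92 ± 0.24 (unadjusted p = 0.00612 and 0.00558, limma adjusted p = 0.305 and 0.202), and the last one 0.038 ± 0.21 and 0.23 ± 0.21, so the probes of Dnmt3a disagreed. Dnmt1, the maintenance methyltransferase, differed by -0.17 ± 0.20 and -0.11 ± 0.20. In each of these comparisons with the control, by the brightest probe of a gene, 2 of 15 genes stood at an unadjusted limma p below 0.05, against 9.08 and 11.6% of probes.

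**Figure D4:**
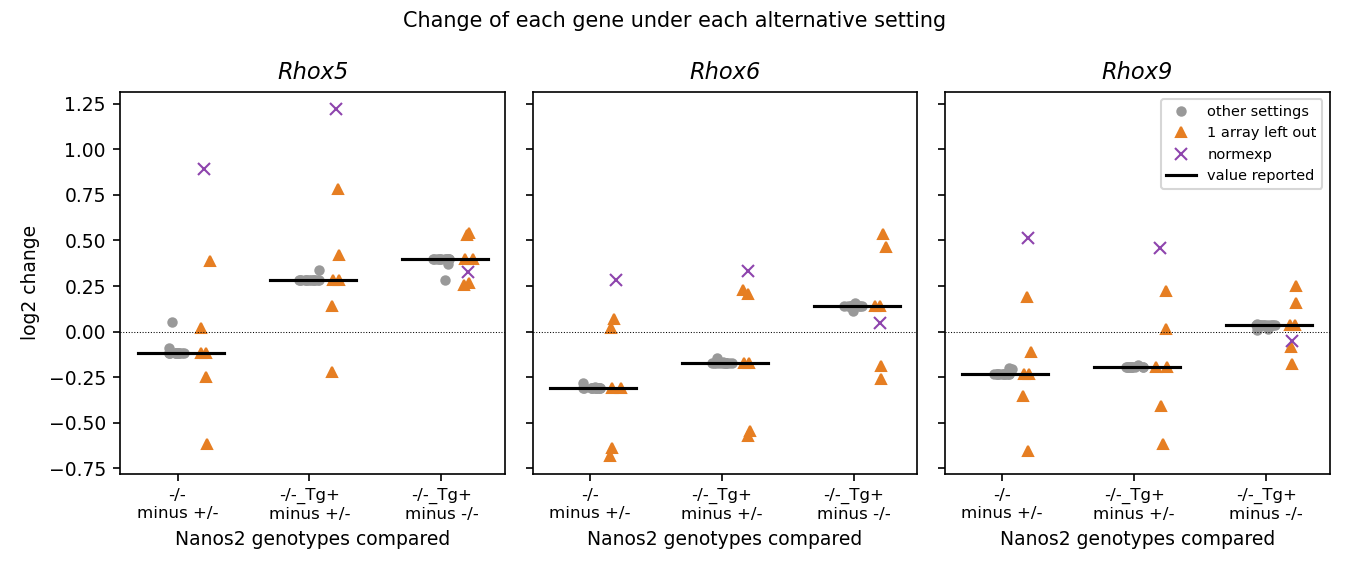
Log2 change of Rhox5, Rhox6 and Rhox9 in the 3 comparisons as reported (black line), with 1 array left out (orange), under normexp background correction (purple) and under the other settings (grey). Leaving out 1 array moves Rhox5 between -0.62 and 0.39 for Nanos2-/- against Nanos2+/-, and the value between Nanos2-/-_Tg+ and Nanos2-/- stays between 0.26 and 0.54.

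The direction of several of these differences changed when 1 array was left out. Without replicate 1 of Nanos2+/-, the change of Rhox5 was -0.62 in Nanos2-/- and -0.22 in Nanos2-/-_Tg+, and without replicate 2 of Nanos2+/- it was 0.39 and 0.79. For Rhox9 the same 2 omissions gave -0.66 and 0.19 in Nanos2-/-, and -0.62 and 0.22 in Nanos2-/-_Tg+. For Rhox6 they gave -0.69 and 0.066 in Nanos2-/-, and -0.55 and 0.20 in Nanos2-/-_Tg+. No limma adjusted p of the 3 genes passed 0.05 under any of these omissions, and none of the 3 genes was called under any of the 21 settings tried.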

How the data were processed

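RNA (0.20 µg per array) was labelled with Cy3 and hybridized to Agilent whole mouse genome arrays. The deposited scanner files hold, per the file headers (Feature Extraction 9.5.3.1), the intensity of 45018 spots per array, background-subtracted and detrended by the authors' software. The deposited value table holds the same intensities to within 0.497%. Here 1639 control spots and 54 to 82 outlier spots per array were left out, each array was scaled to a common 50th percentile as the methods state (factors 0.878 to 1.28), and signals below 5 were set to 5, and log2 values of the spots of a probe were averaged. No spot was saturated. A probe entered the fit (26711 in each comparison) when some genotype had it well above background on both of its arrays. limma 3.58.1 (R 4.3.3) was fitted over all 6 arrays, with a call as given above, and tested on simulated data. The number of arrays limits the precision. Symbols were taken from a RefSeq gene table for 23374 probes. Named genes are the Rhox genes, the nearest flanking genes, fixed lists of 15 upstream genes and of cell type markers, and the 3 genes most alike to each. One gene of the upstream list is counted in it but not reported here. Members and lists were chosen with earlier results of these data known. Python 3.11.15 (pandas 2.3.3) read the promoters, and matplotlib 3.10.9 drew the figures. The alternatives are named in the closing section.

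Where a probe was dim in 1 genotype, the bound on its fold divides the mean of the bright genotype by a limit for the dim one. That limit is, per array, the larger of the probe's own signal and of the weakest signal marked as well above background. Replicates are biological duplicates by the labels.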

Additional observations from a re-analysis of the deposited data

How the results depend on the processing

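Settings tried were scaling to the 75th percentile, quantile and normexp processing, the floor of 5 before scaling, a floor of 20, 3 other filters, outlier spots kept, the value table, the replicate block, only the 4 arrays compared, an intensity trend, the methods' t-test with and without adjustment, and each array left out. normexp was run on the median spot signal, chosen after seeing the data, since the mean spot signal was not used here. Slide was not fitted as a block, because it is confounded with Nanos2+/-. The number of Rhox5, Rhox6 and Rhox9 probes called was 0 in every setting.

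Under normexp the median change of all tested probes was 0.56 in Nanos2-/- and 0.52 in Nanos2-/-_Tg+ against Nanos2+/-, and changes from Nanos2+/- turned positive: in Nanos2-/- to 0.89 for Rhox5, 0.29 for Rhox6, 0.51 for Rhox9 and 0.36 for Rhox4e, and in Nanos2-/-_Tg+ to 0.33 for Rhox6, 0.46 for Rhox9 and 0.49 for Rhox4e. Values already positive also rose, that of Rhox5 in Nanos2-/-_Tg+ to 1.22 and those of Rhox2a to 1.19 in Nanos2-/- and 0.86 in Nanos2-/-_Tg+. Rhox9 between Nanos2-/-_Tg+ and Nanos2-/- became -0.052. Quantile normalization gave 0.051 for Rhox5 in Nanos2-/-. The cause was not tested.

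With 1 array left out, changes in Nanos2-/- ran from -0.62 to 0.39 for Rhox5, -0.69 to 0.066 for Rhox6, -0.66 to 0.19 for Rhox9, -0.41 to 1.07 for Rhox2a and -0.50 to 0.31 for Rhox3a. In Nanos2-/-_Tg+ they ran from -0.22 to 0.79 for Rhox5, -0.57 to 0.23 for Rhox6, -0.62 to 0.22 for Rhox9, -0.67 to 0.81 for Rhox2a and -0.66 to 0.077 for Rhox4e. Between Nanos2-/-_Tg+ and Nanos2-/- they ran from -0.26 to 0.54 for Rhox6, -0.18 to 0.25 for Rhox9, -0.55 to 0.039 for Rhox2a and -0.17 to 0.53 for Rhox4e.

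With the replicate block, the replicate number being all that same-numbered arrays share by the labels, 18, 145 and 4 probes of the array were called in the 3 comparisons, against 18, 28 and 5 without it, and 0 of the Rhox probes. Differences between replicates correlated across genotypes at 0.26 to 0.36. A floor of 20 and normexp left 0 calls in each comparison, and the unadjusted methods' t-test listed 153, 234 and 40. After Benjamini-Hochberg adjustment it listed 0. The 3 filters, the 75th percentile, quantile processing and the intensity trend left 0 to 18 calls, fitting only the 4 arrays compared gave 38, 85 and 1, and leaving out 1 array gave 13 to 47, 21 to 85 and 1 to 29.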
